A study of Arabidopsis thaliana with 6 samples.

Results

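The cold- and drought-responsive *COR* genes described here are 10 nuclear genes of *Arabidopsis thaliana*, namely *RD29A*, *RD29B*, *COR15A*, *COR15B*, *KIN1*, *KIN2*, *RAB18*, *ERD10*, *COR47* and *LTI30*. They were chosen by their gene identifiers, not by any measured value, although earlier results of these data were known. All 10 were found among the 26764 genes of the count table. Transcripts were measured by RNA-seq in 3-week-old seedlings of wild-type plants of the Col-0 accession (wt) and of the triple mutant *h1.1-1h1.2-2h1.3-2* (*3h1*), which carries T-DNA insertions in all 3 genes for linker histone H1. Each genotype had 3 libraries, each made from pooled seedlings of a separate biological replicate. The *h1.3-2* allele came from the L*er* accession by repeated backcrossing, so residual L*er* sequence remains in the mutant, mainly close to *H1.3* on chromosome 2. Seeds of both genotypes were stratified for 2 to 4 days at 4 °C, and the plants then grew on agar medium with 16 h of light at 22 °C and 8 h of darkness at 18 °C. The sample labels name no cold, drought or abscisic acid (ABA) treatment, so the values below are read as levels without such a treatment. The labels do not give the stress state of the plants.

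*COR* genes (for cold-regulated) encode mostly small, very hydrophilic proteins, many of them late embryogenesis abundant (LEA) proteins, that accumulate when plants lose water through cold, drought or salt. LEA proteins are known to protect membranes and other proteins while cells dry or freeze. A pair of routes is known to switch the genes on. In the cold, CBF/DREB1 transcription factors bind the dehydration-responsive element (DRE, also called the C-repeat), and under drought or in maturing seeds ABA acts through bZIP transcription factors that bind the ABA-responsive element (ABRE). Linker histone H1 binds the nucleosome and the DNA that enters and leaves it, and one H1 variant of this plant, H1.3, is known to be induced by drought.

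Total counts were between 4753812 and 6174881 per library, of which 56.5% to 61.2% in wt and 53.4% to 55.5% in *3h1* fell on organelle genes, without overlap, and the median tested gene had 29 to 51 counts in a library. Levels are given as CPM, counts scaled to a common library size. The labels were checked on the mutated genes first. *H1.1* (AT1G06760) had 68.3, 103.2 and 70.8 CPM in the wt libraries and 12.5, 19.4 and 18.0 in *3h1*. *H1.2* (AT2G30620) had 69.0, 87.2 and 85.2 CPM in wt and 12.8, 14.2 and 13.2 in *3h1*. Both were lower in every mutant library than in any wt library, with edgeR adjusted p = 0.00163 and 4.05e-05. *H1.3* was not analysed here. The 5 leaf markers summed to between 9334 and 10300 CPM in wt and to between 7390 and 8061 in *3h1*, and the 6 root markers to 38.8 to 45.4 and 22.6 to 38.0. Single genes weigh heavily in these sums. Mean CPM in wt and *3h1* was 4364 and 3084 for *LHCB1.3* and 1129 and 653 for *LHCB1.1*, while *RCA* (1738 and 1706) overlapped between genotypes. Among root markers, *PIP2;2* had means of 25.4 and 15.4 CPM, while *IRT1* was higher in every *3h1* library than in any wt library (means 2.93 and 3.81). Summed over the 5 flower markers, wt libraries had 2.23 to 4.49 CPM and *3h1* libraries 4.86 to 10.6, and over the 5 seed markers in the table the ranges were 2.64 to 4.49 and 2.06 to 9.87. At 0 counts stood *EM1* in wt replicates 1 and 3, *CRA1* and *OLEO1* in *3h1* replicate 2, *AP1* and *AP3* in wt replicate 3, and *AG* in wt replicate 2 and *3h1* replicate 2.

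Most of these genes lie in tandem pairs, and a short stretch upstream of each was searched for the known control elements. The 250 bases upstream of each annotated start were read from the RefSeq assembly TAIR10.1 and searched on both strands for the DRE core CCGAC and for the ABRE core ACGTG. Positions count back from the base before the start, which is −1, and a position given is the site's base farthest from the start. The 5 windows below belong to the members with the clearest difference in elements (*RD29A* and *RD29B*) and to 3 of the members that passed the unadjusted test between the genotypes (*COR15A*, *KIN1* and *KIN2*). Capitals mark the DRE and ABRE cores, read 5′ to 3′ towards the gene, with GTCGG and CACGT as the same cores on the opposite strand.
RD29A: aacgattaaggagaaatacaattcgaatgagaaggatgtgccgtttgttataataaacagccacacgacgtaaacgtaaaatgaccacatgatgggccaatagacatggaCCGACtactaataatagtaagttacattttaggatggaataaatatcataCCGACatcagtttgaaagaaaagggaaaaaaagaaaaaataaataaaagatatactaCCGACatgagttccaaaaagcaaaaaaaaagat
RD29B: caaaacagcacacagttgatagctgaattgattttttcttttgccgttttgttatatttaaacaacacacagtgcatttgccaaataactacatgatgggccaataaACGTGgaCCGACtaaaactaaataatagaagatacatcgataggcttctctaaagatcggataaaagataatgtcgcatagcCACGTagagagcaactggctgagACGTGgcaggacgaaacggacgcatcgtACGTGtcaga
COR15A: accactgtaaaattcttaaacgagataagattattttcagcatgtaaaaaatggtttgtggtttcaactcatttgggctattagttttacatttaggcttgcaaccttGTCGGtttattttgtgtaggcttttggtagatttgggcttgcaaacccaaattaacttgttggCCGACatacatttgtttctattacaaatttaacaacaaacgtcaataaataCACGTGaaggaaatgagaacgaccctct
KIN1: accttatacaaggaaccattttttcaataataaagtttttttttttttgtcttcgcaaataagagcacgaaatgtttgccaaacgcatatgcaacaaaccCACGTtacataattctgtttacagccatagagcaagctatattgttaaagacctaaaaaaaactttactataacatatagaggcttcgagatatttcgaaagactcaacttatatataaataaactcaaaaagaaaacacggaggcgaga
KIN2: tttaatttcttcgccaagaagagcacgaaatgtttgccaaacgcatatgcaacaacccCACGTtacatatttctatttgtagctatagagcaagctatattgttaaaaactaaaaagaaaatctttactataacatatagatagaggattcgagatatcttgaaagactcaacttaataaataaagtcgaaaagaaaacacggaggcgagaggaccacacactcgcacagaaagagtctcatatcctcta
The windows are chr5:21240467-21240716 (plus strand) for *RD29A*, chr5:21236771-21237020 (plus) for *RD29B*, chr2:17712331-17712580 (minus) for *COR15A*, chr5:5209467-5209716 (plus) for *KIN1* and chr5:5211469-5211718 (plus) for *KIN2*.

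*RD29A*, the gene on which the DRE was first defined, had 3 DRE cores, at −140, −90 and −33, and no ABRE core. Its neighbour *RD29B*, known for its response to ABA, had 4 ABRE cores, at −143, −61, −38 and −10, and 1 DRE core at −136. *COR15A* had 2 DRE cores, at −142 and −79, and 1 ABRE core at −28. The windows of *KIN1* and *KIN2* each held 1 ABRE core, at −150 and −192, and no DRE core. *RAB18* had 3 ABRE cores, at −163, −111 and −18, in a window that also overlaps a neighbouring gene, AT5G66410. *LTI30* had 3 DRE cores, at −101, −78 and −9, in a window that overlaps the gene AT3G50960. No core of either kind was in the windows of *ERD10*, *COR47* or *COR15B*, and the window of *COR15B* overlaps *COR15A* in all but its first 7 bases on the chromosome. Cores farther upstream fall outside these windows, such as DRE cores of *COR15B* at −265, *RAB18* at −337 and *COR47* at −368. Others lie just past the annotated start. With the first 50 bases of the gene added, *RD29A* has 4 DRE cores. *KIN2* then has 2 ABRE cores and *LTI30* has 1, so these counts depend on the start used. In all, 4 of the 10 members had a DRE core, against 12.3% of the 22472 promoters searched in the same way, and 5 of 10 had an ABRE core, against 23.5%. Members such as *RD29A* and *RD29B* are known for these very elements, so shares above those of all promoters are no separate evidence. A core of 5 bases is a match of letters, not a measured binding site.

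**Figure D1:**
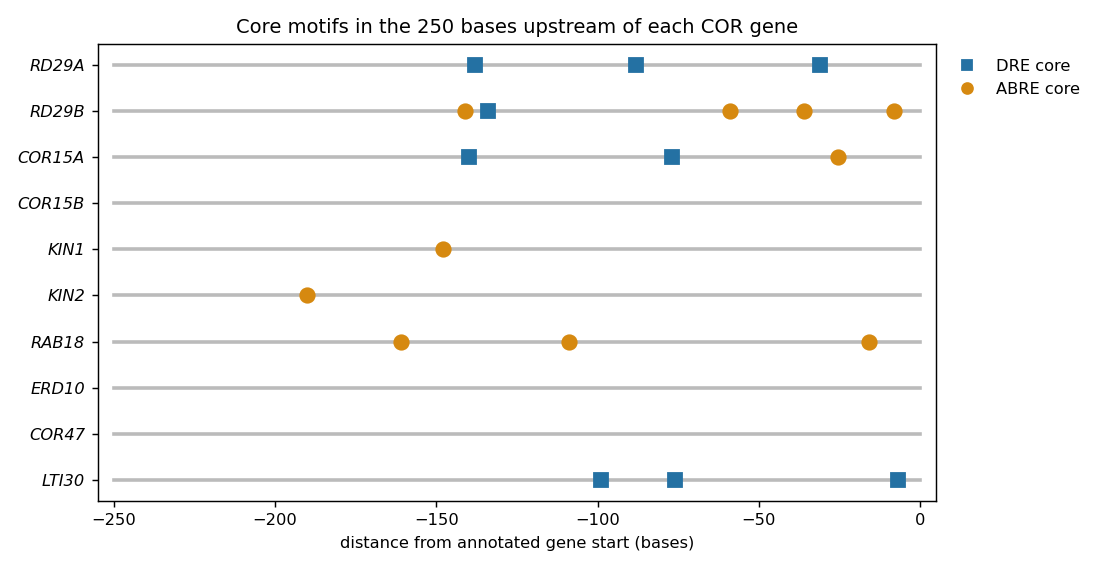
Positions of DRE cores (blue squares) and ABRE cores (orange circles) in the 250 bases upstream of each member, with distance from the annotated gene start in bases on the horizontal axis. Within this window, *RD29A* and *LTI30* carry 3 DRE cores each and no ABRE core, *RD29B* carries 4 ABRE cores, and *ERD10*, *COR47* and *COR15B* carry neither.

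The comparison of *3h1* with wt asks whether loss of H1 moved the basal level of these genes. Fold changes are on the log2 scale from edgeR's quasi-likelihood test, fitted across the 17453 genes that passed a filter on low counts, which all 10 members passed, and p-values were adjusted over those genes. Before adjustment, 4 of the 10 members (*COR15B*, *COR15A*, *KIN2* and *KIN1*) were higher in *3h1* at p under 0.05, where 5.33% of all tested genes were, and 0 of 10 were lower, where 4.17% were. These 4 are the tandem pairs *COR15A*/*COR15B* and *KIN1*/*KIN2*, with coding sequences 82.6% and 95.02% identical, so they are not 4 separate observations. With Benjamini-Hochberg adjustment 0 of 10 members passed 0.05, against 7 genes, or 0.0401% of those tested. DESeq2 and limma voom likewise called 0 members after adjustment, where they called 34 and 6 of all genes, and each had 3 members higher at unadjusted p under 0.05, where 579 and 769 of all genes were. *3h1* libraries all stood above all wt libraries for 4 members (*COR15B*, *COR15A*, *KIN2* and *RD29A*), where 7.57% of tested genes did so. A single member (*KIN1*) combined an unadjusted p under 0.05 with a fold change above 2, against 2.63% of genes. The median log2 fold change was 0.17 over the members, with 9 above 0 and 1 below. Over all tested genes it was 0.01, with 8937 above 0 and 8516 below. The signs of *RD29B*, *RAB18*, *ERD10* and *LTI30* differed in some alternative fits. Without *3h1* replicate 1 the members' median was 0.379, beside 0.01 over all genes, and with no filter on low counts it was 0.107, beside 0.07. Without wt replicate 3 the number of members under 0.05 fell from 4 to 1 (*COR15B*), and without *3h1* replicate 2 the number of members that passed after adjustment was 1 (*COR15B*), in a fit where 96 of all genes passed instead of 7. In pooled seedlings, more cells that express a gene and more RNA per cell cannot be told apart, and the part of the organelle share and of the leaf, root, seed and flower marker differences given above was not tested.

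**Figure D2:**
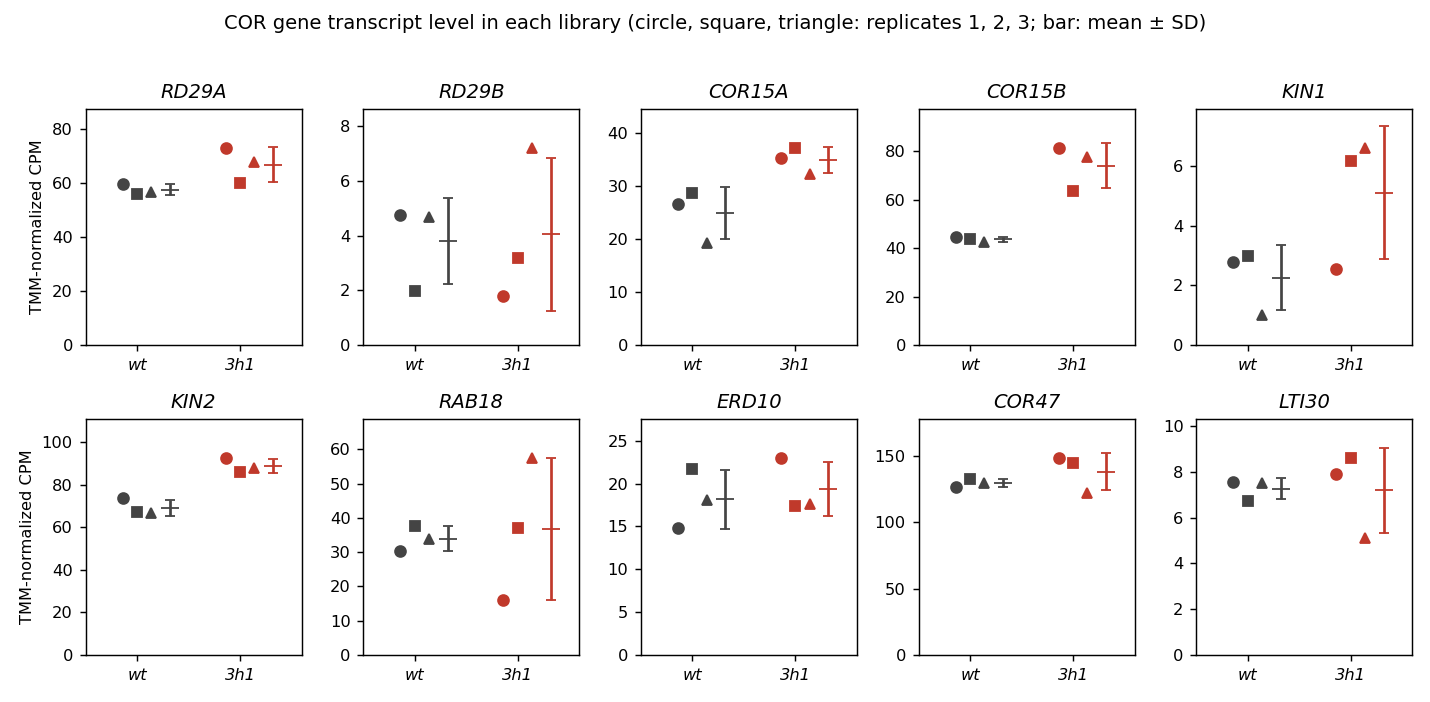
TMM-normalized CPM of each member in the 3 wt and 3 *3h1* libraries, on a linear axis that starts at 0 in each panel. Symbols are single libraries (circle, square and triangle for replicates 1, 2 and 3), and bars are the mean ± SD. *COR15B*, *COR15A*, *KIN2* and *RD29A* have all mutant libraries above all wt libraries, and *RAB18* has closely spaced wt libraries inside a mutant range from 16.0 to 57.4 CPM.

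*COR15B* and *COR15A* encode small proteins that enter the chloroplast and are known to protect its membranes during freezing. They lie head to tail on the minus strand of chromosome 2 with 7 bases between them, *COR15B* (AT2G42530) at chr2:17708593-17710433 and *COR15A* (AT2G42540) at chr2:17710441-17712330. *COR15B* had 44.8, 43.6 and 42.4 CPM in wt and 81.2, 63.5 and 77.5 CPM in *3h1*. The wt libraries lay within 3 CPM of each other, and every mutant library was well above them. The log2 fold change was 0.76 (SE 0.14, 95% interval 0.45 to 1.08), with edgeR unadjusted p = 0.00021 and adjusted p = 0.170, which placed *COR15B* 20th by p among all tested genes. This was the one member with unadjusted p under 0.05 in all 15 alternative fits, with a log2 fold change between 0.69 and 0.84. Without *3h1* replicate 2, its lowest mutant library, the adjusted p was 0.0260, in the fit where 96 of all genes passed, and over all alternatives it ran from 0.0260 to 0.659. *COR15B* overlaps AT2G42520, on the opposite strand, by 468 bases, and whether counting used strand is not given in the sources used here. AT2G42520 had 21.2, 19.9 and 26.6 CPM in wt and 17.5, 23.7 and 21.2 CPM in *3h1*, with overlapping groups and a log2 fold change of −0.12 (SE 0.18, edgeR unadjusted p = 0.5001).

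*COR15A* had 26.6, 28.7 and 19.3 CPM in wt and 35.2, 37.0 and 32.2 CPM in *3h1*. The groups did not overlap, and wt replicate 3 was the lowest of the 6 libraries. Its log2 fold change was 0.49 (SE 0.17, 95% interval 0.12 to 0.86), with edgeR unadjusted p = 0.0143 and adjusted p = 0.392. Without wt replicate 3 the log2 fold change was 0.32 and the unadjusted p 0.0921, and the unadjusted p was under 0.05 in the other 14 alternatives. The coding sequences of the pair are 82.6% identical. *COR15B* was the more abundant copy per kilobase of exon in every library, by 1.52 to 2.2 times in wt and by 1.72 to 2.41 times in *3h1*, ranges that overlap. *COR15B* counts were whole numbers in all 6 libraries and *COR15A* counts were fractional in 1, where a fraction marks reads divided among genes.

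*KIN1* and *KIN2* encode small alanine-rich hydrophilic proteins induced by cold and ABA. They lie head to tail on the plus strand of chromosome 5 with 892 bases between them, *KIN1* (AT5G15960) at chr5:5209717-5210826 and *KIN2* (AT5G15970, also called *COR6.6*) at chr5:5211719-5212743. *KIN2* had 73.6, 67.1 and 66.6 CPM in wt and 92.5, 86.1 and 87.7 CPM in *3h1*. The groups did not overlap, and the spread within each was small (SD 3.92 CPM in wt and 3.32 CPM in *3h1*, n = 3 each). The log2 fold change was 0.36 (SE 0.13, 95% interval 0.07 to 0.65), with edgeR unadjusted p = 0.0183 and adjusted p = 0.403. The unadjusted p was under 0.05 in 10 of 15 alternatives, and it was 0.0746 without wt replicate 2, 0.0885 without wt replicate 3, 0.0620 without *3h1* replicate 1, 0.0538 with DESeq2 and 0.0949 with no filter on low counts.

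*KIN1* was expressed far below its neighbour, with 2.79, 2.99 and 1.02 CPM in wt and 2.54, 6.17 and 6.58 CPM in *3h1*. Mutant replicate 1 lay among the wt libraries and the other mutant libraries lay above them, so the groups overlapped. The counts behind these values were 5 to 17 in wt and 17.1 to 44.5 in *3h1*. *KIN1* had the largest log2 fold change of the 10 members, 1.16, and a wide error (SE 0.47, 95% interval 0.14 to 2.18), with edgeR unadjusted p = 0.0299 and adjusted p = 0.468. The unadjusted p was under 0.05 in 9 of 14 alternatives, and it was 0.1105 without wt replicate 3, 0.0825 without *3h1* replicate 2, 0.1142 without *3h1* replicate 3, 0.0656 with limma voom and 0.0623 with a replicate block. The coding sequences of the pair are identical at 191 of 201 bases (95.02%), and each gene had fractional counts in 3 libraries, so the division of counts between the copies is uncertain. Per kilobase, *KIN2* stood 24.8 to 72.5 times above *KIN1* in wt and 14.6 to 40.1 times in *3h1*, ranges that overlap.

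*RD29A* and *RD29B* encode related hydrophilic proteins and are the standard reporters of the DRE and ABRE routes. They follow each other on the plus strand of chromosome 5, *RD29B* (AT5G52300) at chr5:21237021-21239531 and *RD29A* (AT5G52310) at chr5:21240717-21243644, with 1185 bases between them. *RD29A* had 59.8, 56.1 and 56.8 CPM in wt and 72.8, 60.0 and 67.8 CPM in *3h1*. The groups touched without overlapping, since mutant replicate 2 lay only just above wt replicate 1. The log2 fold change was 0.22 (SE 0.14, 95% interval −0.08 to 0.51, edgeR unadjusted p = 0.139), and the unadjusted p was above 0.05 in all 15 alternatives.

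*RD29B* was the member with the lowest level per kilobase, with 4.76, 1.99 and 4.67 CPM in wt and 1.79, 3.18 and 7.18 CPM in *3h1*. Mutant libraries were both the lowest and the highest of the 6, and wt lay between. Its log2 fold change of 0.06 (SE 0.49, 95% interval −1.02 to 1.14, edgeR unadjusted p = 0.898) rested on 8 to 47.5 counts per library. An interval this wide does not settle the size or direction of a difference. The sign of the fold change differed in 5 of 14 alternatives. The coding sequences of the pair are 56.6% identical over their alignment. Counts were fractional in 4 libraries for *RD29A* and in 3 for *RD29B*. Per kilobase, *RD29A* exceeded *RD29B* in every library, by 9.93 to 22.9 times in wt and by 7.77 to 32.3 times in *3h1*.

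The other 4 members are dehydrins, the LEA group whose proteins carry lysine-rich segments and coat membranes under water loss. *RAB18* (AT5G66400, chr5:26518277-26519447, minus strand) is the dehydrin best known for its response to ABA, and in guard cells it is expressed without stress. It had 30.4, 37.6 and 33.9 CPM in wt and 16.0, 37.2 and 57.4 CPM in *3h1*. The mutant libraries spread from far below to far above the wt libraries, with SD 20.7 CPM in *3h1* against 3.63 CPM in wt (n = 3 each). The log2 fold change was 0.12 (SE 0.34, 95% interval −0.62 to 0.86, edgeR unadjusted p = 0.726). Without *3h1* replicate 1 it was 0.48 with unadjusted p = 0.0397, and without *3h1* replicate 3 it was −0.36. *RAB18* overlaps AT5G66410 by 11 bases, and that gene had 3.45 to 4.49 CPM in wt and 3.92 to 5.68 CPM in *3h1*.

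*COR47* and *ERD10* are acidic dehydrins encoded side by side on the minus strand of chromosome 1, *COR47* (AT1G20440) at chr1:7084409-7086873 and *ERD10* (AT1G20450) at chr1:7087903-7089606. *COR47*, the member with the highest CPM, had 126.8, 132.6 and 129.7 CPM in wt and 148.3, 144.4 and 121.9 CPM in *3h1*. Mutant replicates 1 and 2 were above wt and replicate 3 was below it, so the groups overlapped (log2 fold change 0.09, SE 0.14, 95% interval −0.22 to 0.40, edgeR unadjusted p = 0.526). *ERD10* had 14.8, 21.7 and 18.1 CPM in wt and 23.0, 17.4 and 17.7 CPM in *3h1*. The groups were interleaved, with mutant replicate 1 the highest library (log2 fold change 0.10, SE 0.19, 95% interval −0.31 to 0.52, edgeR unadjusted p = 0.600). The coding sequences of the pair are 73.5% identical, and per kilobase *COR47* exceeded *ERD10* by 4.28 to 6.004 times in wt and by 4.52 to 5.82 times in *3h1*.

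*LTI30* (AT3G50970, also called *XERO2*) is a cold-induced dehydrin with a single annotated exon at chr3:18940643-18941611 on the plus strand. It had 7.56, 6.73 and 7.51 CPM in wt and 7.91, 8.60 and 5.09 CPM in *3h1*. Mutant replicates 1 and 2 were the highest libraries and mutant replicate 3 the lowest. *LTI30* was the one member with a fold change below 0, at −0.03 (SE 0.25, 95% interval −0.57 to 0.52, edgeR unadjusted p = 0.919), and the sign differed in 3 of 15 alternatives.

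**Figure D3:**
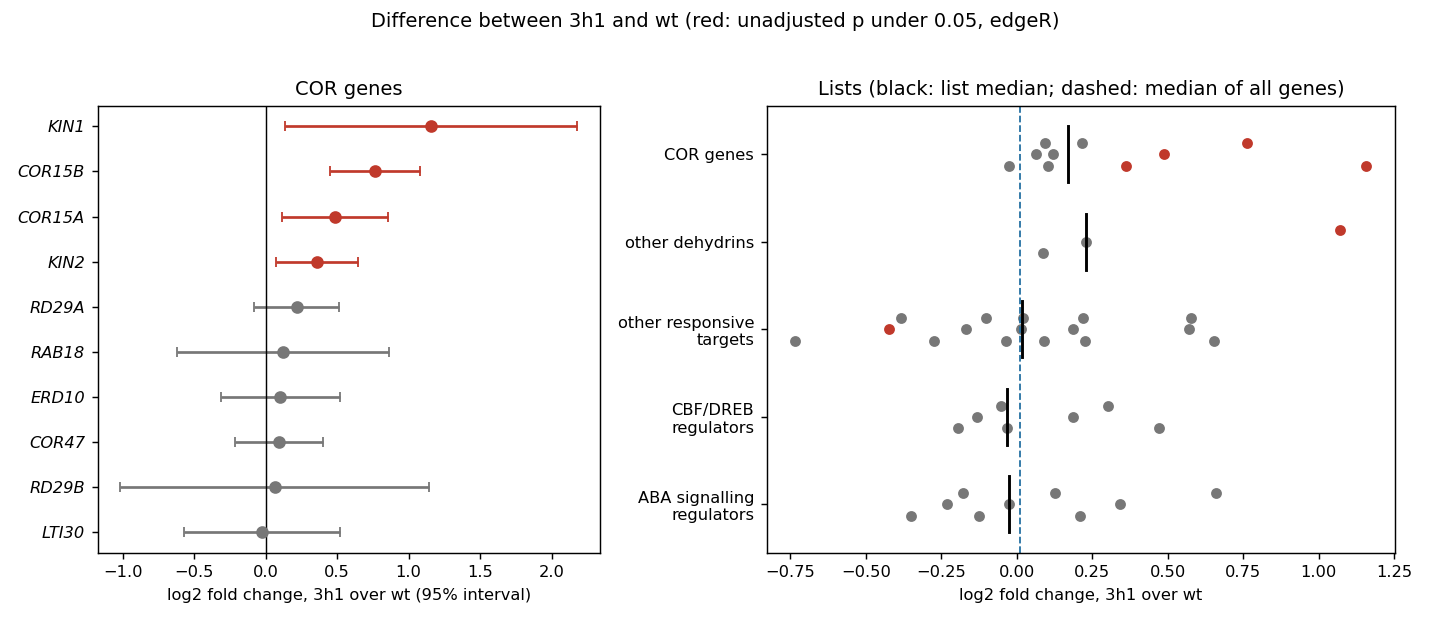
Left, log2 fold change of *3h1* over wt for each member with its 95% interval. Right, the log2 fold changes of the tested genes of each list, with the list median in black and the median of all tested genes (0.01) as a dashed line. Red marks an unadjusted edgeR p under 0.05, which 4 members reach, with the interval of *COR15B* (0.45 to 1.08) the farthest from 0 and those of *KIN1* and *RD29B* the widest.

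Levels of different genes were compared as RPKM, CPM divided by the kilobases of annotated exon. These values were scaled to the total count, organelle reads included, and serve to rank genes within a genotype, not to compare genotypes. In wt the order ran from *KIN2* (85.1 ± 13.8 RPKM, SD, n = 3) through *COR47* (51.4 ± 4.22), *RAB18* (28.5 ± 0.759), *COR15B* (25.4 ± 3.22), *RD29A* (19.9 ± 2.77), *COR15A* (14.5 ± 3.30), *ERD10* (10.2 ± 0.988), *LTI30* (6.92 ± 1.08) and *KIN1* (2.53 ± 1.27) to *RD29B* (1.64 ± 0.768). The wt ranges of *RAB18* and *COR15B*, of *COR15A* and *ERD10*, and of *KIN1* and *RD29B* overlapped, and those of the other neighbours did not. *KIN2* in wt lay above 96.5% of tested genes, *COR47* above 95.2% and *RAB18* above 92.1%, while *KIN1* lay above 36.7% and *RD29B* above 22.1%. The other 5 members lay above 71.9% to 91.4% of tested genes. In *3h1* the same order held, except that *COR15B* (50.4 ± 7.35 RPKM) and *RAB18* (36.4 ± 20.9) changed places, and their ranges overlapped. With coding length in place of exon length, *COR15B* stood above *RAB18* and *COR15A* above *RD29A* in wt also.

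Library by library, the members followed several patterns. Their summed level was 379.9 to 399.1 CPM in wt and 463.6 to 481.1 CPM in *3h1*, without overlap, and *COR47*, *KIN2*, *COR15B* and *RD29A* made up most of it. Of the 10 members, only 4 had all mutant libraries above all wt libraries, and *COR47* overlapped. Mean CPM in wt and *3h1* was 43.6 and 74.1 for *COR15B*, 69.1 and 88.8 for *KIN2*, and 129.7 and 138.2 for *COR47*. *RAB18* and *RD29B* were both lowest in *3h1* replicate 1 and highest in *3h1* replicate 3. *COR47* and *LTI30* had their lowest level in *3h1* replicate 3, while *COR15B*, *KIN2*, *RD29A* and *ERD10* had their highest in *3h1* replicate 1. Summed seed marker levels were 8.21, 2.06 and 9.87 CPM in *3h1* replicates 1, 2 and 3. *RAB18* and *RD29B* were at their lowest in replicate 1 and, like the seed sum, at their highest in replicate 3. None of the seed markers passed the filter on low counts, and any link was not tested. Averaged over the 10 members, standardized log2(CPM + 0.5) was −0.36, −0.33 and −0.59 in wt and 0.47, 0.45 and 0.36 in *3h1*.

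**Figure D4:**
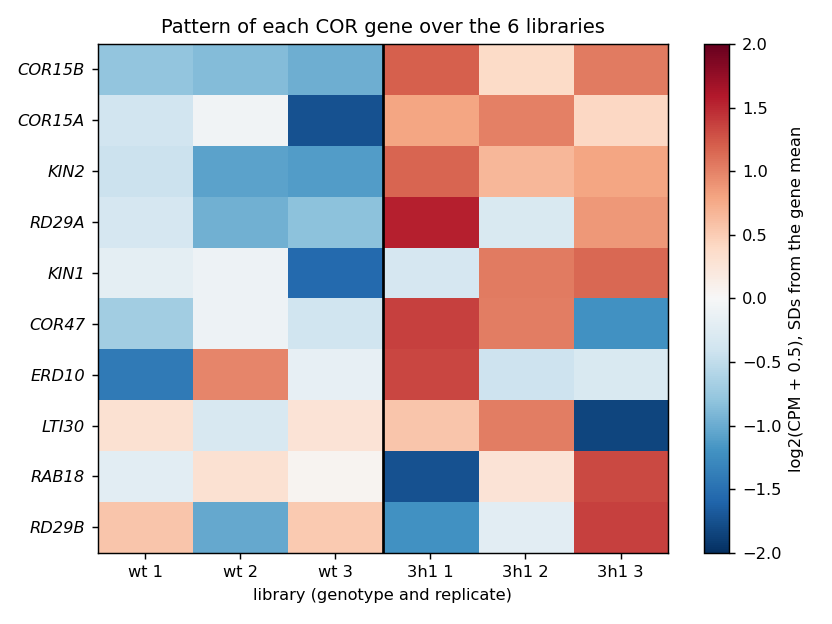
Standardized log2(CPM + 0.5) of each member (rows) in each library (columns), in SDs from that gene's mean. *COR15B* and *KIN2* separate the genotypes in all libraries, *RAB18* and *RD29B* run from their lowest in *3h1* replicate 1 to their highest in *3h1* replicate 3, and *COR47* and *LTI30* are lowest in *3h1* replicate 3.

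Of the 13517 further genes that reached 10 counts in each library, those most like this average over the 6 libraries were AT1G61400 (Pearson r 0.995), AT5G18400 (0.993), AT4G30000 (0.993), AT3G56480 (0.992) and *HAC2* (AT1G67220, 0.989), the last encoding a protein of the CBP-type histone acetyltransferase family. These correlations are a description of 6 points that share the same libraries. *HAC2* had 6.90, 7.23 and 4.47 CPM in wt and 14.6, 14.0 and 13.5 CPM in *3h1*. All mutant libraries of *HAC2* were above all wt libraries (log2 fold change 1.18), which its choice for likeness to an average that itself separates the genotypes had largely fixed.

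The regulators and further targets of the same routes were read from the same fit. Of 11 CBF/DREB route regulators, 7 were tested, 3 were above 0 and 4 below, and none passed an unadjusted p of 0.05 in edgeR, with a median log2 fold change of −0.03. Of the cold-induced activators themselves, *CBF1* and *CBF2* stayed below the filter with at most 5 and 6.88 counts in any library. *CBF3* was tested, with 3.78, 4.74 and 3.25 CPM in wt and 6.12, 1.87 and 7.93 CPM in *3h1*. Its groups overlapped (log2 fold change 0.47, SE 0.44, edgeR unadjusted p = 0.303). The main upstream activator of the *CBF* genes, *ICE1*, had 14.8, 16.0 and 15.4 CPM in wt and 13.3, 18.7 and 12.7 CPM in *3h1*. *HOS1*, the ubiquitin ligase that targets ICE1, had 14.8, 19.7 and 21.9 CPM in wt and 19.0, 14.6 and 17.5 CPM in *3h1*. Both overlapped between genotypes, with edgeR unadjusted p = 0.788 for *ICE1* and 0.495 for *HOS1*. Of 11 ABA signalling regulators, 9 were tested and none passed 0.05 before adjustment (4 above 0, 5 below, median −0.03). The most abundant of them were *SNRK2.2*, a kinase of ABA signalling (50.1 to 57.6 CPM in wt and 40.5 to 54.0 in *3h1*), and *ABF1*, a bZIP factor of the ABRE (21.2 to 25.0 and 17.9 to 24.9 CPM), and in both the groups overlapped.

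Of 6 dehydrins outside the members, 3 were tested, all with log2 fold changes above 0, and 1 had an unadjusted p under 0.05. That gene, AT4G38410, had 6.73, 4.99 and 2.64 CPM in wt and 10.4, 5.98 and 13.9 CPM in *3h1*. Its groups overlapped at mutant replicate 2 and wt replicate 1, with a log2 fold change of 1.07 (SE 0.36, edgeR unadjusted p = 0.0129, adjusted p = 0.380). Without wt replicate 3 its unadjusted p was 0.0522, and without *3h1* replicate 3 it was 0.0693. *HIRD11*, the most abundant dehydrin measured, had 423.9, 425.0 and 403.1 CPM in wt and 428.6, 515.1 and 387.0 CPM in *3h1* (log2 fold change 0.09), and *ERD14*, a close relative of *ERD10* and *COR47*, had 142.7, 149.3 and 124.4 CPM and 169.0, 175.4 and 143.4 CPM (log2 fold change 0.23, edgeR unadjusted p = 0.149). Both overlapped between the genotypes. Of 22 other genes that respond to CBF or ABA, 16 were tested, 9 above 0 and 7 below with a median of 0.02, and 1 passed an unadjusted p of 0.05, on the lower side. This was *RD22*, a drought-induced gene that ABA controls through MYC and MYB factors, with 63.9, 57.1 and 72.7 CPM in wt and 47.9, 39.8 and 56.5 CPM in *3h1*. Every mutant library of *RD22* was below every wt library (log2 fold change −0.42, SE 0.16, edgeR unadjusted p = 0.0244, adjusted p = 0.442). For *RD22* the unadjusted p was 0.0891 without wt replicate 3, 0.0573 without *3h1* replicate 1 and 0.0648 without *3h1* replicate 2. The most abundant genes of this list, *ERD4* (140.6 to 149.6 CPM in wt and 126.4 to 152.7 in *3h1*) and *ERD1* (88.1 to 100.2 and 73.7 to 97.4), overlapped between genotypes. Without *3h1* replicate 2, *ERD1* had a log2 fold change of −0.33 with edgeR unadjusted p = 0.0488. Over these 4 lists, 0 of 35 tested genes passed an adjusted p of 0.05 in edgeR, DESeq2 or limma voom, and each tool had 2 (AT4G38410 and *RD22*) under 0.05 before adjustment. In edgeR 5.33% of all tested genes were higher and 4.17% lower at that threshold. Whatever their p, 8937 of all tested genes were above 0 and 8516 below.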

How the data were processed

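RNA of wt and *3h1* seedlings was depleted of ribosomal RNA and sequenced on an Ion Proton. The authors aligned reads to TAIR10 with TMAP and BBMap, removed ribosomal and spike-in reads, and deposited estimated counts per ARAPORT11 gene from the expectation-maximization step of Partek Flow. The deposited expected counts are not normalized, and some are fractional because shared reads are divided among genes. A second deposited table, with the authors' p-values, fold changes and group means, was not used.

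Counts were rounded and tested with edgeR 4.0.16 (R 4.3.3): TMM normalization, filterByExpr, the quasi-likelihood fit of genotype and Benjamini-Hochberg adjustment over 17453 genes. CPM values are TMM-normalized. Totals were 4753812 to 6174881 per library, so genes with few counts, such as *KIN1* and *RD29B*, have wide intervals. The replicates are pools of seedlings. Each edgeR p-value weighs the genotype difference against the spread between these pools, estimated with information shared across genes. With 3 libraries a group, an exact permutation test of one gene could not go below p = 0.1. Alternatives used limma 3.58.1 voom, DESeq2 1.42.0, other scalings and filters, a replicate block and leaving out each library. The fit was tested on simulated data. Earlier results of these data were known when the members and gene lists were chosen. The members were set by gene identifier, not by a measured value. Genes named from the 4 pathway lists are those with unadjusted p under 0.05 and the 2 with the highest mean CPM in each list, together with the 5 genes most like the members in pattern. *CBF1*, *CBF2* and *CBF3* fall outside this rule and were named after their values were seen. Tissue markers are given as sums, and single markers were also named after their values were seen. Gene positions, exon lengths and upstream sequences came from RefSeq TAIR10.1, whose nuclear chromosome lengths equal those of TAIR10, read with biopython 1.88. No protein comparison was made, and identities are of coding sequences. Listed genes missing from the counts (9 of 50, *H1.3* and *SESA1*) were not analysed here.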

Additional observations from a re-analysis of the deposited data

How the results depend on the processing

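Over 15 alternative fits the log2 fold changes of *RD29A*, *COR15A*, *COR15B*, *KIN1*, *KIN2* and *COR47* stayed above 0, while the sign differed for *RD29B* (5 of 14), *RAB18* (3), *LTI30* (3) and *ERD10* (2). Of these only *RAB18* was under 0.05 in any fit, without *3h1* replicate 1 (0.48). With DESeq2, 579 genes were higher and 416 lower at unadjusted p under 0.05 and 34 passed adjustment, against 931, 727 and 7. With no filter on low counts 1547 genes were higher and 12 passed adjustment, and the median of the members was 0.107 against 0.169, and with at least 10 counts in every library, where *KIN1* and *RD29B* could not be tested, 3 passed. Leaving out 1 library at a time, 1 to 4 members were higher before adjustment and 0 to 1 passed after it, the median of the members ran from 0.192 to 0.379, and over all genes 647 to 1730 were higher and 3 to 96 passed adjustment. The cause of these shifts was not tested. Libraries with the same replicate number did not deviate together (mean correlation −0.10), and with a replicate block 3 members were under 0.05 (*KIN1* at 0.0623), and 3 genes passed adjustment. With 50 bases downstream of the start added to the window, 4 members held a DRE core, against 15.5% of promoters. An ABRE core was held by 6, against 27.5%. In a window of 1000 bases, chosen after seeing the data, 9 members held a DRE core, against 37.8% of promoters, and 6 an ABRE core, against 55.0%. At 5 to 47.5 counts, differences of *KIN1* and *RD29B* below about their intervals were not detectable.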
